A study of Mus musculus with 7 samples.

Results

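Transcript levels of 7 genes for ion pumps of the cell surface and the endoplasmic reticulum were described in neuron-enriched dorsal root ganglia of mice with a sciatic nerve injury. The genes are Atp1b1, Atp1b3, Atp2a2, Atp2b1, Atp2b2, Atp2b3 and Atp2b4, found by symbol as 7 of the 54309 rows of the authors' TPM table, and each symbol occurred once. All animals were male C57bl/6 mice of 6 to 8 weeks per the labels. Injury fell at Zeitgeber time (ZT, hours after lights on) 20 in the first group (ZT20, 4 samples) and at ZT 8 in the second (ZT8, 3 samples), and the L4-6 ganglia, which hold the sensory neuron cell bodies of that nerve, were taken 72 h later, so injury and dissection share the same clock time. Ganglia were dissociated with enzymes and passed through an albumin gradient that enriches neurons without isolating them. All samples were injured, and nothing in the labels says how many animals a sample holds or that samples are separate animals, so p-values measure only the spread between these samples.

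These pumps use ATP to move ions against their gradients. Na,K-ATPase exports sodium and imports potassium after each action potential; its catalytic alpha subunit needs a beta subunit, such as those encoded by Atp1b1 and Atp1b3, to fold and reach the membrane. Calcium that enters a neuron is cleared by plasma membrane calcium ATPases (PMCA, encoded by Atp2b1 to Atp2b4), which push it out of the cell, and by SERCA pumps, which load it into the endoplasmic reticulum; Atp2a2 encodes the SERCA form found in most tissues. In sensory neurons calcium clearance shapes excitability and transmitter release.

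TPM, transcript abundance per unit of length, is scaled to the same sum in every sample, so sequencing depth, and with it the counting error of each value, is unknown. The number of genes above 0 TPM was 24192 to 25238 at ZT20 and 18297 to 22973 at ZT8, lowest in ZT8 replicate 2. Neuronal markers were abundant in every sample, with summed TPM of 12 genes from 19545 to 24179 at ZT20 and from 15006 to 21938 at ZT8. ZT20 replicates 3 and 4, labelled male, had the Y-linked genes Ddx3y, Eif2s3y and Uty listed at 0 and Xist at 2.21 and 2.30 TPM, and ZT20 replicate 2 held both Y-linked transcripts and Xist (1.08 TPM). The difference of each pump gene is therefore also given without ZT20 replicates 3 and 4. Differences are ZT20 minus ZT8 in log2(TPM + 1), tested with limma over the 14800 genes whose mean reached 1 TPM, with Benjamini-Hochberg adjustment over all of them. All 7 pump genes passed that filter; Atp2b4, with a ZT8 mean of 0.885 TPM, passed it through its ZT20 values.

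The pump genes covered a wide span of levels. Atp1b1 was the most abundant in all 7 samples and ranked 84 of 14800 tested genes by mean TPM. Atp2b1 and Atp1b3 followed at ranks 605 and 710, and their ranges overlapped in both groups, with Atp2b1 the higher in 6 of 7 samples. Atp2b2 and Atp2a2 (ranks 4442 and 4595) came next and also overlapped, with Atp2b2 higher in 5 of 7. Atp2b3 and Atp2b4 were at the bottom, at ranks 11158 and 11862; their ranges overlapped at ZT20 but not at ZT8, where Atp2b4 lay below Atp2b3 in every sample. Since TPM is per transcript length, these levels allow a rough comparison between genes. It is limited by the trend with length given below and by the unknown division of reads among the PMCA genes.

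**Figure D1:**
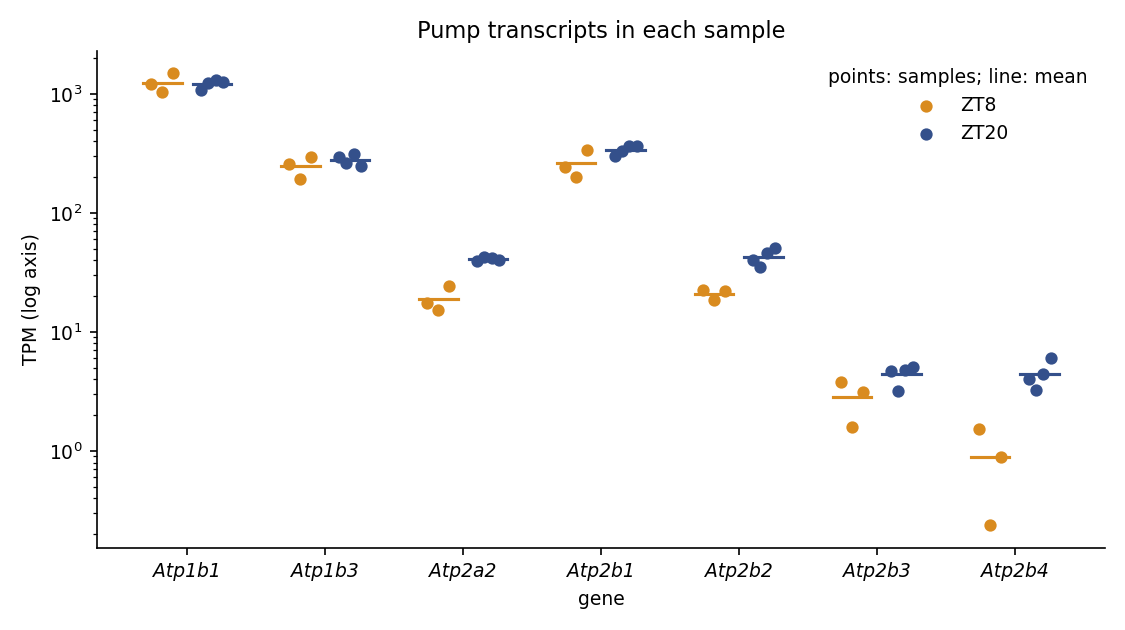
TPM of the 7 pump genes (log axis) in each ZT8 sample (3 points) and ZT20 sample (4 points), with the group mean as a line. Atp2a2, Atp2b2 and Atp2b4 have all ZT20 samples above all ZT8 samples, while the groups overlap for the other 4 genes.

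Of the 7 genes, 3 rose at ZT20 and 0 fell by limma: Atp2a2, Atp2b2 and Atp2b4, all of them calcium pumps. Atp2b4 entered the test through its ZT20 values alone and did not pass with no filter on low values (limma adjusted p = 0.0565), which leaves 2 of 7. At an unadjusted p under 0.05 the same 3 were higher and 0 lower, beside 26.0% of all tested genes higher and 8.61% lower (34.6% in either direction). Among all tested genes 12.8% were called higher at ZT20 and 3.61% lower by limma (16.4% in either direction). In the same 3 pump genes each ZT20 value exceeded each ZT8 value, as in 24.5% of all tested genes; in either direction the groups did not overlap for 33.2%. The median difference over all tested genes was 0.23, so small positive differences lie near the middle of the table. That median depends on the scaling, as it was 0.033 with median-ratio scaling and 0.005 with quantile normalization. Under both scalings the same 3 genes passed.

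The sodium pump subunits showed no difference that passed. Atp1b1 encodes the beta subunit that is widespread in neurons. It stood at 1075, 1226, 1300.2 and 1251 TPM in ZT20 replicates 1 to 4. In ZT8 replicates 1 to 3 it stood at 1209, 1040 and 1486 TPM. The highest and the lowest of the 7 values were both ZT8 samples, so the groups overlapped fully. The difference was −0.03 with a 95% interval of −0.34 to 0.29 (limma adjusted p = 0.912), and −0.10 without ZT20 replicates 3 and 4.

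Atp1b3 encodes another beta isoform. Its TPM was 296.5, 262.3, 314.2 and 249.7 in the ZT20 replicates and 259.2, 190.9 and 297.5 in the ZT8 replicates. ZT8 replicate 2 was the lowest sample and the rest overlapped. The difference was 0.19 with a 95% interval of −0.19 to 0.57 (limma adjusted p = 0.443), and 0.19 again without ZT20 replicates 3 and 4; its sign turned under median-ratio scaling (−0.04). For Atp1b1 the difference was −0.26 under median-ratio scaling (limma adjusted p = 0.229), and its sign turned under quantile normalization (0.05). Neither gene thus has a direction that held under both scalings. Atp1b1 made up 81.2% ± 2.19 of the Atp1b1 and Atp1b3 TPM in the ZT20 group (SD, n = 4) and 83.4% ± 1.08 in the ZT8 group (SD, n = 3), with overlapping ranges. In GENCODE M21 Atp1b1 overlaps Nme7 on the opposite strand, Atp2a2 overlaps Gm43361 and Atp2b2 overlaps Gm15082 and Gm15083, and whether strand was used in counting is not given in the sources used here.

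Atp2a2, the SERCA gene, was 2.16-fold higher at ZT20 by group means. It was at 39.4, 42.8, 41.8 and 40.2 TPM in the ZT20 replicates. The ZT8 replicates had 17.4, 15.3 and 24.2 TPM. The ZT20 samples lay within a narrow band, with a coefficient of variation of 3.79%, and all were above the highest ZT8 sample. The difference was 1.10 (standard error 0.17, limma adjusted p = 0.00735, higher in 4 of 4 ZT20 samples than in any ZT8 sample). It passed in all 7 fits that left out a single sample. Without ZT20 replicates 3 and 4 it was again 1.10, but with an adjusted p of 0.151; in that fit of 2 against 3 samples limma called 0 genes in the whole table, with 2378 at an unadjusted p under 0.05.

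Atp2b1 supplied most of the plasma membrane calcium pump transcript. The isoform it encodes is found in nearly all cells. Its TPM was 298.9, 327.8, 365.0 and 366.7 in the ZT20 replicates and 243.1, 198.3 and 340.1 in the ZT8 replicates. ZT8 replicate 3 lay among the ZT20 samples and the other ZT8 samples lay below all of them. The difference of 0.41 (standard error 0.18) missed the threshold with a limma adjusted p of 0.145. It was 0.18 with median-ratio scaling (limma adjusted p = 0.482) and 0.48 with quantile normalization (limma adjusted p = 0.0922). Without ZT8 replicate 3 it was 0.62 and passed (limma adjusted p = 0.0372), and without ZT20 replicates 3 and 4 it was 0.30 (limma adjusted p = 0.570).

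Atp2b2 encodes a PMCA enriched in neurons and in the hair cells of the ear. It was at 40.5, 35.1, 45.9 and 50.3 TPM in the ZT20 replicates. In the ZT8 replicates it was at 22.3, 18.6 and 22.2 TPM, all below the lowest ZT20 sample. The ratio of the means was 2.04. The difference, 0.99 with a standard error of 0.16, had a limma adjusted p of 0.00866 and passed in all 7 fits that left out a single sample. Without ZT20 replicates 3 and 4 it was 0.82 (limma adjusted p = 0.168).

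Atp2b3, an X-linked gene for a PMCA known mainly from neurons, was low in all samples. Its TPM was 4.70, 3.18, 4.81 and 5.03 in the ZT20 replicates and 3.78, 1.58 and 3.16 in the ZT8 replicates. ZT20 replicate 2 fell inside the ZT8 range. The difference was 0.53 with a 95% interval of −0.11 to 1.17 and did not pass (limma adjusted p = 0.211). Since the ZT20 samples differed in sex-linked transcripts, this X-linked gene was also compared without replicates 3 and 4, which gave 0.39 (limma adjusted p = 0.660).

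Atp2b4 had the largest ratio of the 7 genes. It encodes a broadly expressed PMCA. It was at 4.05, 3.28, 4.41 and 6.08 TPM in the ZT20 replicates. ZT8 replicates 1 to 3 had 1.53, 0.238 and 0.887 TPM. The groups did not overlap and the ratio of means was 5.03, set by low ZT8 values whose counting error is unknown. The difference was 1.57 (standard error 0.31, limma adjusted p = 0.0152), and 2.45 (standard error 0.56, limma adjusted p = 0.026) with a pseudocount of 0.1 in place of 1. Without ZT20 replicate 3 or 4 the adjusted p rose to 0.0544 and 0.0548, with differences of 1.56 and 1.44. Without both it was 1.36 (limma adjusted p = 0.222). With no filter on low values the adjusted p was 0.0565. The PMCA genes share sequence, and how reads were divided among them is not given in the sources used here.

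**Figure D2:**
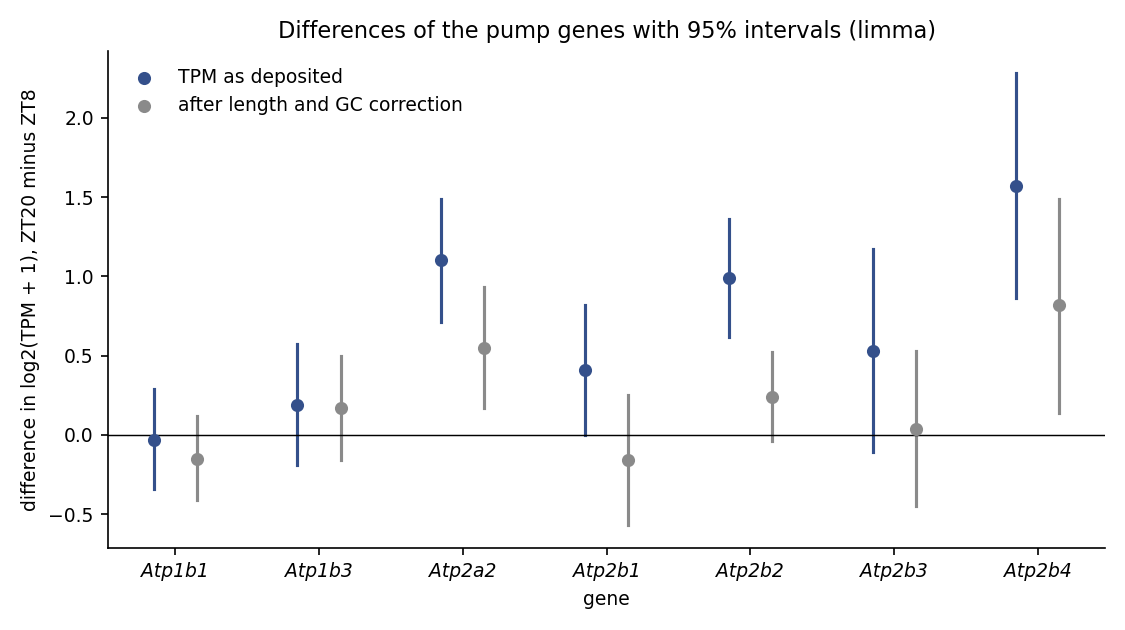
Difference in log2(TPM + 1), ZT20 minus ZT8, of each pump gene with its 95% interval from limma, for TPM as deposited (blue) and after each sample's trend with transcript length and GC content was removed (grey). The values for Atp2a2, Atp2b2 and Atp2b4 are 1.10, 0.99 and 1.57 as deposited and 0.55, 0.24 and 0.82 after the correction.

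Transcript length moved with the differences. Across all tested genes the median difference was −0.03 in the 10% with the shortest transcripts and 0.69 in the 10% with the longest, where 36.5% of genes were called higher at ZT20. The calcium pump genes have long transcripts, from 4637 nt for Atp2b3 to 11725 nt for Atp2b4 in GENCODE M21, and the beta subunits short ones, 2580 nt for Atp1b1 and 1994 nt for Atp1b3. Among that longest group, which holds Atp2b1, Atp2b2 and Atp2b4, 2.71% had a larger difference than Atp2b4, 26.9% a larger one than Atp2b2 and 68.8% a larger one than Atp2b1. In the group next to it, which holds Atp2a2, 13.2% had a larger difference than that gene. How far length took part in these differences was not tested beyond the correction given next.

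Once the trends with length and GC content had been taken out of each sample, 0 of the 7 genes passed in limma, against 8.8% of all tested genes. Before adjustment, 2 of the 7 had a 95% interval above 0 and 0 below, beside 12% of all tested genes higher and 15.1% lower at an unadjusted p under 0.05 (27.0% in either direction). Atp2a2 was at 0.55 (95% interval 0.17 to 0.93, limma adjusted p = 0.0766) and Atp2b4 at 0.82 (0.14 to 1.49, limma adjusted p = 0.121). Atp2b2 was at 0.24 (−0.04 to 0.52, limma adjusted p = 0.251). Atp2b3 was at 0.04, and Atp2b1 turned to −0.16 (limma adjusted p = 0.593). The beta subunit genes moved less, to −0.15 and 0.17.

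**Figure D3:**
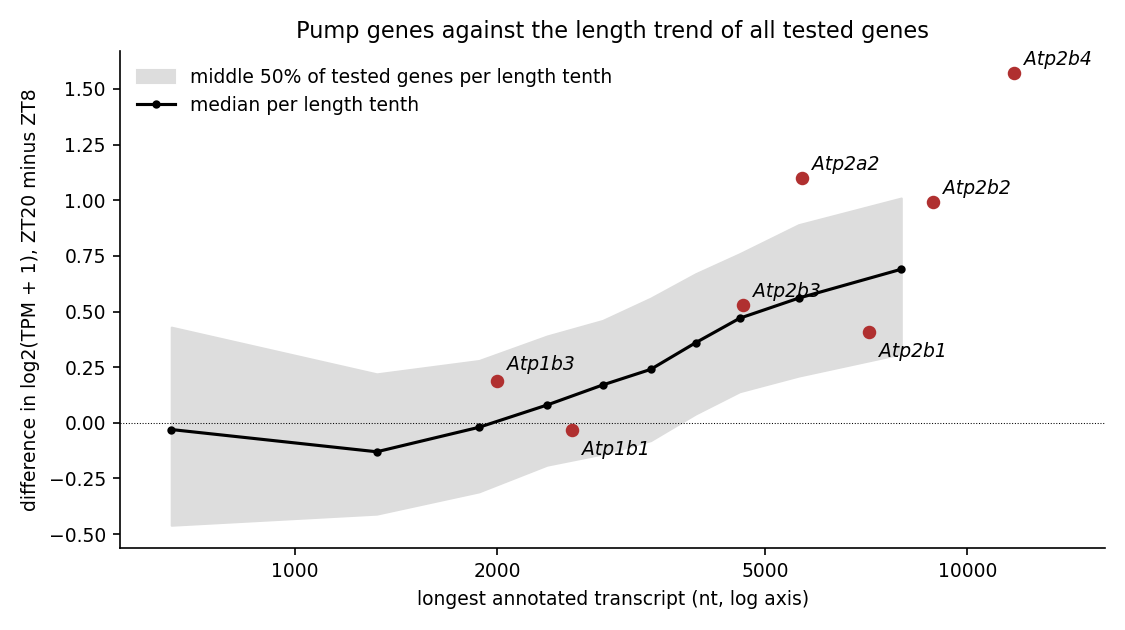
Difference in log2(TPM + 1), ZT20 minus ZT8, against the longest annotated transcript (nt, log axis). The black line joins the medians of all tested genes in 10 groups of equal size by length, the grey band holds their middle 50%, and red points are the pump genes; Atp2b4 and Atp2a2 are above the middle 50% of their own length groups and Atp2b1 is below the median of its group.

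A ratio of genes within a sample does not depend on scaling between samples. Atp2b1 held 85.7% to 88.8% of the summed PMCA TPM at ZT20 and 89.8% to 92.8% at ZT8. The share of Atp2b2 was 11.6%, 9.49%, 10.9% and 11.8% in the ZT20 replicates and 8.23%, 8.52% and 6.05% in the ZT8 replicates. That of Atp2b4 was 0.889% to 1.42% at ZT20 and 0.109% to 0.566% at ZT8. In these 3 shares the groups did not overlap, whereas that of Atp2b3 overlapped (0.862% to 1.35% and 0.721% to 1.40%). The shares are parts of a single sum, so they are not separate results. Atp2b2 and Atp2b4 already did not overlap as TPM, as was so for 33.2% of all tested genes in either direction. How often such ratios do not overlap over all genes was not computed. Removing the length and GC trend narrowed the differences, and the Atp2b2 share then overlapped (9.65% to 11.0% at ZT20, 6.41% to 9.89% at ZT8). The share of Atp2b4 still did not, at 0.792% to 1.27% and 0.234% to 0.697%, nor did that of Atp2b1, at 86.6% to 88.6% and 88.9% to 92.4%.

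Atp2a2 was also set against the plasma membrane pumps. Its TPM was 11.3%, 11.6%, 9.96% and 9.38% of the summed PMCA TPM in the ZT20 replicates and 6.43%, 7.00% and 6.62% in the ZT8 replicates. After the length and GC correction the ranges were 9.40% to 12.2% and 6.12% to 7.44%. The SERCA transcript was thus higher relative to the PMCA transcripts in every ZT20 sample than in any ZT8 sample on both scales. Relative to Atp1b1 it was 3.40% ± 0.222 in the ZT20 group (SD, n = 4) and 1.51% ± 0.103 in the ZT8 group (SD, n = 3), a gap that narrowed to 2.99% ± 0.321 and 1.82% ± 0.196 after the correction, still without overlap. These ratios are descriptions without a test, and how often such ratios do not overlap over all genes was not computed.

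**Figure D4:**
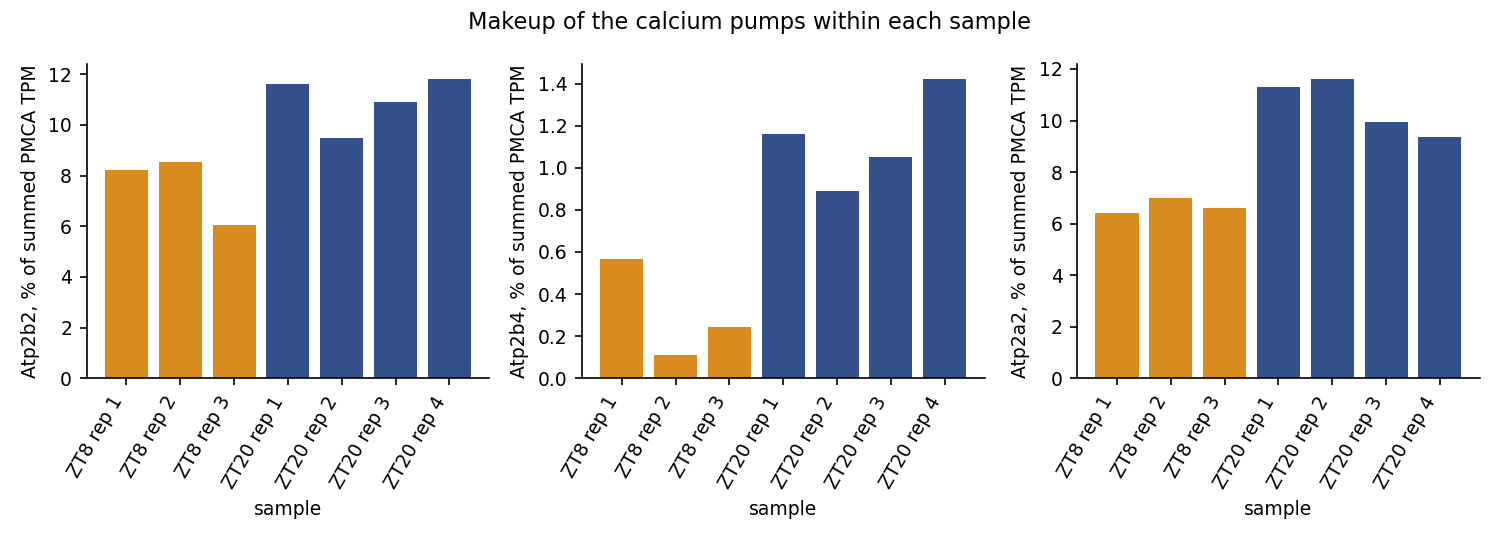
Share of Atp2b2 and of Atp2b4 in the summed PMCA TPM, and Atp2a2 TPM as a percentage of that sum, as 1 bar per sample (ZT8 orange, ZT20 blue). In all 3 panels each ZT20 bar is above each ZT8 bar, with Atp2a2 at 9.38% to 11.6% against 6.43% to 7.00%.

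Cell type markers moved with the groups as well. Of 8 satellite glia markers, 3 were lower at ZT20 and 0 higher, beside 3.61% of all tested genes lower. Their summed TPM was 7560 to 9249 at ZT20 and 12872 to 15579 at ZT8, of which Apoe made up 6261 to 7615 and 10623 to 13557. The low-level Cadm2 and Kcnj10 had differences of 0.96 and 0.21, neither past the threshold (limma adjusted p = 0.0882 and 0.596). Of 12 neuronal markers, 4 were higher and 0 lower, beside 12.8% of all tested genes higher, with overlapping sums. After the length and GC correction 2 passed, beside 8.8% of all tested genes in either direction. No satellite glia marker was at 0 in all samples. Among the markers of 8 other cell types, 1 of 8 tested macrophage markers and 1 of 5 tested plasma cell markers were lower. In these 8 types 0 markers were higher, beside 3.61% of all tested genes lower and 12.8% higher. With a score of neuronal minus non-neuronal markers as a covariate, the difference of Atp2a2 was 0.72, that of Atp2b2 0.95 and that of Atp2b4 1.67, with limma adjusted p-values of 0.334, 0.270 and 0.306; limma then called 0 genes in the whole table, with 1915 at an unadjusted p under 0.05. In bulk samples fewer cells of a type and less RNA per cell cannot be told apart. Library identifiers were numbers at ZT20 and letters at ZT8, so a naming batch and the clock time cannot be told apart.

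The start regions of these genes were searched for letters that clock and injury factors are known to bind. RefSeq start windows of GRCm38.p6 (250 bases before to 50 after a start) were held for 5 of the 7 genes, 9 windows in all; Atp2a2 and Atp2b3 were not searched. Both strands were searched for the E-box CACGTG bound by CLOCK and BMAL1, the D-box TTANGTAA bound by DBP and its relatives, the RORE core AGGTCA, the CRE TGACGTCA and the AP-1 site TGANTCA. Of 32851 windows of all genes, 7.15% held the E-box, 2.32% the D-box, 16.3% the RORE core, 1.79% the CRE and 7.81% the AP-1 site. Each window of the pump genes held at most 1 match, so none overlapped. The E-box was found in 1 window each of Atp1b3 and Atp2b1, whose transcripts did not pass, and the D-box in 1 of the 3 windows of Atp2b2, which rose. The first 2 lines show 30 bases around each E-box (chr9:96363919-96363948, minus strand, E-box starting 221 bases before the start, and chr10:98914638-98914667, plus strand, E-box 8 bases past the start). The others show the 250 bases before a start of Atp2b2 (chr6:113934682-113934931, minus strand) and of Atp2b4 (chr1:133753748-133753997, minus strand, a start inside the gene), the pump gene with the largest ratio, whose window held none of the 5 motifs. Capitals mark the matches.
Atp1b3 E-box: ccgagcggggcaCACGTGctgccggttccc
Atp2b1 E-box: cgcgggccgcgtCACGTGaccgcgcccagc
Atp2b2 D-box: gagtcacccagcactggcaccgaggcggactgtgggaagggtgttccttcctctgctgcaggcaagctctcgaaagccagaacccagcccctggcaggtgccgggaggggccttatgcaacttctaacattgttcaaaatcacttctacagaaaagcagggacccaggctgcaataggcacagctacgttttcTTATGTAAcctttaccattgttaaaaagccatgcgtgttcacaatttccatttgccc
Atp2b4 upstream: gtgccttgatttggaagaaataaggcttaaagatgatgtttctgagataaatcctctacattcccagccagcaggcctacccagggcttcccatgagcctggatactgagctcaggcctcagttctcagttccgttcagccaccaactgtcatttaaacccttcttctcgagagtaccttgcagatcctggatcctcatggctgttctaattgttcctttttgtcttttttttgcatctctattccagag
A match is a description of these letters only.

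Other genes of sodium and calcium transport were followed in 11 lists. Of 81 listed genes 64 were tested; 9 were higher and 4 lower at ZT20, which is 20.3% against 16.4% of all tested genes. Their median difference was 0.26 beside 0.23 for all tested genes, and −0.05 after the length and GC correction, when 8 passed (12.5% against 8.8% of all tested genes).

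Around the sodium pump 1 listed gene passed on the TPM as deposited, Nkain4, beside 16.4% of all tested genes in either direction. Atp1b2 passed only after the length and GC correction, when 8.8% of all tested genes passed. Of the catalytic alpha subunits 0 of 3 passed in limma, with 1 higher at an unadjusted p under 0.05, beside 26.0% of all tested genes higher at that level. Atp1b2, the beta subunit also known from glia, averaged 150.4 ± 24.7 TPM in the ZT20 group (SD, n = 4) against 178.1 ± 44.8 in the ZT8 group (SD, n = 3), a difference of −0.23 (limma adjusted p = 0.428), and was at −0.58 after the correction (limma adjusted p = 0.0419). Of the FXYD genes, whose small proteins tune the pump, 0 of 7 passed in limma, with 1 higher and 2 lower at an unadjusted p under 0.05 (34.6% of all tested genes in either direction); Fxyd2, the most abundant, averaged 1425 ± 182 TPM in the ZT20 group (SD, n = 4) against 1959 ± 425 in the ZT8 group (SD, n = 3), a difference of −0.45 (limma adjusted p = 0.0959). Of the beta-interacting Nkain genes 1 of 4 fell, beside 3.61% of all tested genes. Nkain4 fell by 0.80 (limma adjusted p = 0.0162), and at −0.71 it passed after the correction (limma adjusted p = 0.0405).

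The remaining lists concern calcium. Atp2c1, the calcium and manganese pump of the Golgi, rose by 0.76 (limma adjusted p = 0.0273). It averaged 130.6 ± 16.9 TPM in the ZT20 group (SD, n = 4) against 78.1 ± 19.8 in the ZT8 group (SD, n = 3). It was the 1 of 2 other calcium pumps to pass, beside 12.8% of all tested genes called higher. With length and GC content corrected it was at 0.29 and missed the threshold (limma adjusted p = 0.270). Among proteins known to associate with PMCA, 3 of 9 rose and 1 fell, beside 12.8% and 3.61% of all tested genes. Nptn and Bsg encode neuroplastin and basigin, related membrane proteins that serve as partner subunits of PMCA. Nptn averaged 229.0 ± 39.6 TPM in the ZT20 group (SD, n = 4) against 99.3 ± 39.1 in the ZT8 group (SD, n = 3), a difference of 1.25 (limma adjusted p = 0.0146). Bsg went the other way and averaged 1170 ± 50.9 TPM in the ZT20 group (SD, n = 4) against 1507 ± 58.5 in the ZT8 group (SD, n = 3), a difference of −0.36 (limma adjusted p = 0.0338). After the length and GC correction both kept their sign, at 0.92 and −0.36, and neither passed (limma adjusted p = 0.0634 and 0.0732). Cask, a scaffold kinase, rose by 1.27 (limma adjusted p = 0.0351), and the corrected difference was 0.60 (limma adjusted p = 0.294).

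Regulators of SERCA gave 0 higher and 2 lower of 6, beside 12.8% and 3.61% of all tested genes. At an unadjusted p under 0.05 there were 2 higher and 2 lower, beside 26.0% and 8.61% of all tested genes. S100a1, a calcium-binding protein known to stimulate SERCA in muscle, fell by 1.02 and Hax1 by 0.52 (limma adjusted p = 0.0285 and 0.0234), while Pdia3, the most abundant of the list, differed by 0.41 (limma adjusted p = 0.0961). After the length and GC correction Hax1 passed (−0.46, limma adjusted p = 0.0336) and S100a1 did not (−0.87, limma adjusted p = 0.0529). Of the exchangers 1 of 5 rose, beside 12.8% of all tested genes. It was Slc24a2, a potassium-dependent sodium-calcium exchanger of neurons. Slc24a2 averaged 28.3 ± 2.42 TPM in the ZT20 group (SD, n = 4) against 10.8 ± 1.53 in the ZT8 group (SD, n = 3), a difference of 1.32 (limma adjusted p = 0.00327). With length and GC content corrected it passed too (0.62, limma adjusted p = 0.0398).

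Mitochondrial calcium uptake gave 2 higher and 0 lower of 8, with 12.8% and 3.61% over all tested genes. Micu3, a neuronal regulator of the mitochondrial calcium channel, averaged 143.5 ± 58.8 TPM in the ZT20 group (SD, n = 4) against 45.4 ± 20.7 in the ZT8 group (SD, n = 3), a difference of 1.64 (limma adjusted p = 0.0173). Mcu, the channel itself, rose by 0.84 (limma adjusted p = 0.0102), and Smdt1, its small essential subunit and the most abundant of the list, differed by −0.14 (limma adjusted p = 0.510). Mcu and Micu3 passed again after the length and GC correction, at 0.67 and 1.59 (limma adjusted p = 0.0474 and 0.0234). Calcium buffers gave 2 higher of 9 (12.8% of all tested genes), the chaperone gene Canx (0.78, limma adjusted p = 0.00734) and the neuronal calcium-binding Necab1 (0.73, limma adjusted p = 0.0315), and the most abundant, Hspa5, differed by 0.06. After the correction Canx passed (0.45, limma adjusted p = 0.0408) and Necab1 did not (0.35, limma adjusted p = 0.218). Of the genes of calcium release and store-operated entry 0 of 10 passed in limma, with 4 at an unadjusted p under 0.05, all higher, beside 26.0% of all tested genes higher at that level; the list's median difference was 0.54, and −0.06 after the length and GC correction, when Tmco1, a calcium channel of the endoplasmic reticulum named here after its value was seen, passed at −0.52 (limma adjusted p = 0.0352).

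**Figure D5:**
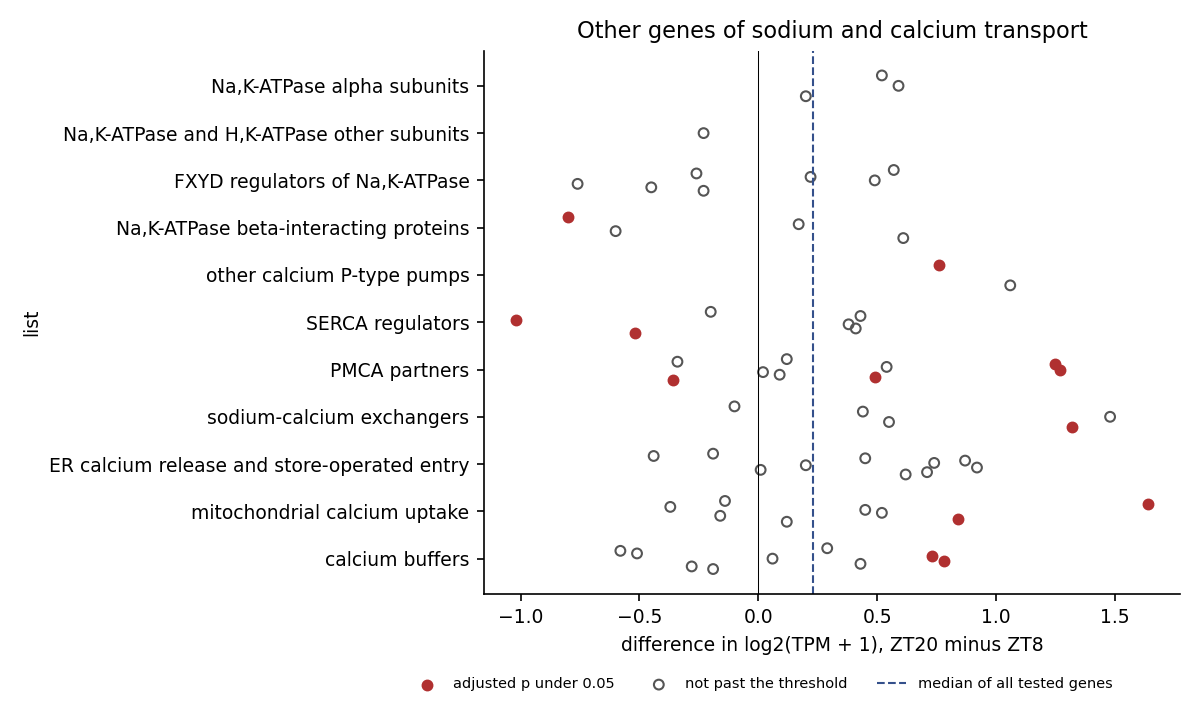
Difference in log2(TPM + 1), ZT20 minus ZT8, of the 64 tested genes in 11 lists of sodium and calcium transport; filled red points passed an adjusted p of 0.05 in limma and open points did not. The dashed line is the median of all tested genes at 0.23, and the 13 filled points lie on both sides of it.

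The genes whose pattern over the 7 samples lay nearest to each pump gene were found by the root mean square difference of log2(TPM + 1) after each gene was centred on its mean, among 8106 genes whose mean reached 10 TPM. For Atp1b1 they were Ywhab (0.0347) and Arpin (0.0415), and for Atp1b3 Nectin2 (0.0426) and Aifm1 (0.0645). Those nearest to Atp2a2 were Timp2 (0.0720) and Agfg1 (0.0915), and to Atp2b1 Nsg2 (0.0573) and Exoc3 (0.0599). Atp2b2 had Nrcam (0.0609) and Numa1 (0.0610), Atp2b3 had Vps11 (0.0336) and Pfkm (0.0391), and Atp2b4 had Plxna2 (0.114) and Etl4 (0.132). Among the pump genes themselves the closest pair was Atp1b1 and Atp1b3 (0.181) and the farthest Atp1b1 and Atp2b4 (0.846), with Atp2a2 and Atp2b2 at 0.218. Values were centred but not scaled, so these distances also follow the size of each gene's difference between the groups.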

How the data were processed

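The authors deposited gene values as TPM, scaled within each sample to the same sum. Per the submitters' processing notes the build was GRCm39 and the tools were FastQC 0.11.9, Trim Galore 0.6.6, Salmon 1.6.0 and DESeq2 1.34.0, with no role given; annotation release and scaling between samples are not given in the sources used here. Here log2(TPM + 1) of 14800 genes was fitted over 7 samples without covariates. The fit used R 4.3.3 and limma 3.58.1 (lmFit, then eBayes allowing a trend by intensity). Tests were two-sided, and genes were called at a Benjamini-Hochberg adjusted p of 0.05. The outcome of a trial of this procedure on simulated data is not given here, and nothing is drawn from it. A pseudocount of 1 understates changes of low genes. Transcript length and GC content came from GENCODE M21 (GRCm38), matched by identifier for 99.6% of tested genes; each sample's trend with both was removed by loess (span 0.3) as an alternative. Start windows came from RefSeq (GRCm38.p6). Tables and figures used pandas 2.3.3 and matplotlib 3.10.9 in Python 3.11.15. The members, lists and tests were chosen with earlier results of these data known. All 7 pump genes are named; from each list, up to 3 genes past the threshold in each direction by size of difference and the most abundant gene where its mean reached 100 TPM; and the 2 nearest patterns per pump gene. Some genes that this rule names are not reported here.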

Additional observations from a re-analysis of the deposited data

How the results depend on the processing

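Depth is unknown, so counting error, which is part of the spread between samples, cannot be separated from it. The number of genes past the threshold (2433; 1899 higher, 534 lower at ZT20) was 1178 with no filter (978 higher, 200 lower), 1303 with the length and GC correction (527 higher, 776 lower), 3899 with array weights (2982 higher, 917 lower), and 0 both with the marker score and without ZT20 replicates 3 and 4. Median-ratio scaling gave 1128 higher and 1160 lower, quantile normalization 1023 and 814, and dropping the intensity trend 332 lower. Leaving out each replicate gave 723 to 3047 genes, 620 to 2375 higher and 103 to 672 lower, with the fewest without ZT20 replicate 3 (723), 4 (855) or 1 (1132).

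Whether the replicate numbers pair the samples could not be decided. Deviations from the group means correlated at −0.0141, 0.153 and 0.0830 for numbers 1 to 3. ZT20 replicates 1 and 2 both correlated best with ZT8 replicate 2, and ZT20 replicate 3 with ZT8 replicate 1 (0.15). Deviations sum to 0 within each small group, so correlations of this size cannot show or exclude pairing. With the replicate block 1174 genes passed (891 higher, 283 lower), and with the block and the length and GC correction 510 (225 higher, 285 lower). Under the block Atp2b4 was at 1.44 (limma adjusted p = 0.0527), and under the block with the correction Atp2a2 was at 0.59, Atp2b2 at 0.20, Atp2b4 at 0.72 and Atp2b1 at −0.17, none past the threshold.

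Calls lost with the length and GC correction were Atp2a2 (0.55), Atp2b2 (0.24) and Atp2b4 (0.82), and Atp2b1 turned to −0.16. With the marker score they were Atp2a2 (0.72), Atp2b2 (0.95) and Atp2b4 (1.67), Atp1b3 turned to −0.27 and Atp2b1 was at 0.04. Without ZT20 replicates 3 and 4 they were Atp2a2 (1.10), Atp2b2 (0.82) and Atp2b4 (1.36). Atp2b4 also missed the threshold with no filter (1.57), and it was not tested at a mean of at least 5 TPM, nor was Atp2b3. Atp1b1 turned to 0.05 under quantile normalization and Atp1b3 to −0.04 under median-ratio scaling. Over the fits that left out each replicate Atp1b1 ran from −0.15 to 0.11 (0.03 without ZT20 replicate 1, 0.11 without ZT8 replicate 3), Atp1b3 from 0.01 (without ZT8 replicate 2) to 0.33 (without ZT8 replicate 3), Atp2b1 from 0.23 (without ZT8 replicate 2) to 0.62, Atp2b3 from 0.27 (without ZT8 replicate 2) to 0.72 and Atp2b4 from 1.30 to 1.81. For these changes the cause was not tested.

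Among ratios within a sample, the length and GC correction moved the difference in the Atp2b2 share to 2.18 percentage points, in the Atp2b4 share to 0.593, in Atp2b2 over Atp2b1 to 2.76 and in Atp2a2 over Atp1b1 to 1.17, and it turned the difference in summed PMCA TPM to −35.7. Without ZT20 replicates 3 and 4 the difference in Atp2a2 over the summed PMCA TPM was 4.78 percentage points.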
